A study of Mus musculus with 4 samples.

Results

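Rad21 occupancy was examined across the clustered protocadherin genes, taken as every peak lying wholly within positions 36900000 to 38100000 of mouse chromosome 18 (build mm9), a window of 1.2 Mb. The window held 51 of the 92937 peaks in 4 chromatin immunoprecipitation libraries: 11 and 12 peaks in wild-type (WT) replicates 1 and 2, and 15 and 13 in 53BP1 knockout replicates 1 and 2. It was divided into an alpha part (up to 37.4 Mb), a beta part (37.4 to 37.75 Mb) and a gamma part (above 37.75 Mb), by the centre of each peak. Both genotypes were v-Abl transformed pro-B cell lines, B cell precursors made immortal by the v-Abl oncogene. Both were deficient in RAG1, the recombinase subunit that starts V(D)J recombination, and carried an Emu-Bcl2 transgene, a survival gene under an immunoglobulin enhancer. Both received 3 uM STI-571, which inhibits the v-Abl kinase, for 4 days. The knockout lines in addition lacked 53BP1, a chromatin protein of DNA break repair. The titles and the extraction protocol name a Rad21 antibody, whereas the treatment field of each sample names a 53BP1 antibody, and the libraries are called Rad21 libraries after the former. Peak lists carry no marker of cell type and no measure of 53BP1, so cell identity and genotype rest on the labels.

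Rad21 is a subunit of cohesin, the ring complex that extrudes chromatin loops until it meets bound CTCF. Clustered protocadherins are cell-surface adhesion proteins known for giving neurons individual identities. Variable exons of the alpha and gamma clusters each have a promoter of their own and are spliced to constant exons shared within the cluster, whereas beta genes have no shared constant exons. Most of these promoters can bind CTCF, and in neurons loops held by CTCF and cohesin bring a chosen promoter to distant enhancers. RefSeq (GRCm38.p6) lists 14 alpha genes from Pcdha1 to Pcdhac2, 22 beta genes from Pcdhb1 to Pcdhb22 and 22 gamma genes from Pcdhga1 to Pcdhgc5, 58 in all. In RefSeq order, Zmat2 precedes the clusters, Slc25a2 and Taf7 lie inside them, and Diaph1, Hdac3 and Rell2 follow. The peaks are in mm9 and no mm9 annotation was used here, so no peak is assigned to a gene, and the part edges and the neighbours bordering the window are approximate.

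Lists held 21971 and 23029 peaks in WT cells and 25145 and 22792 without 53BP1 on chromosomes 1 to 19 and X, with 691, 721, 779 and 719 of them on chromosome 18. Read depth per library is unknown. Fold, the enrichment of a peak over its background, is the authors' value and has its own scale in each list. Its median was 4.10 and 4.06 in the WT lists and 4.15 and 3.67 in the knockout lists, so knockout replicate 2 was the weakest list.

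Rad21 peaks were spread very unevenly over the 3 parts. The alpha part, 0.5 Mb long, held 0 and 1 peaks in WT replicates 1 and 2 and 1 in each knockout replicate. The beta part, 0.35 Mb long, held 2 in each WT and 3 in each knockout library. The gamma part, also 0.35 Mb, held 9 in each WT library, 11 in knockout replicate 1 and 9 in knockout replicate 2. Peak density was therefore 1.5 ± 1 per Mb in the alpha part, 7.14 ± 1.65 in the beta part and 27.1 ± 2.86 in the gamma part (mean ± SD, n = 4 libraries). The order alpha, beta, gamma was found in each of the 4 libraries, and the values of the parts did not overlap. On the rest of chromosome 18 the density was 8.26 ± 0.408 per Mb. Most peaks of the gamma part lay above 38 Mb, 6 and 5 in WT cells and 6 and 6 without 53BP1. Whether those peaks lie in the gamma genes was not determined, so 27.1 per Mb describes the part and not the genes.

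**Figure D1:**
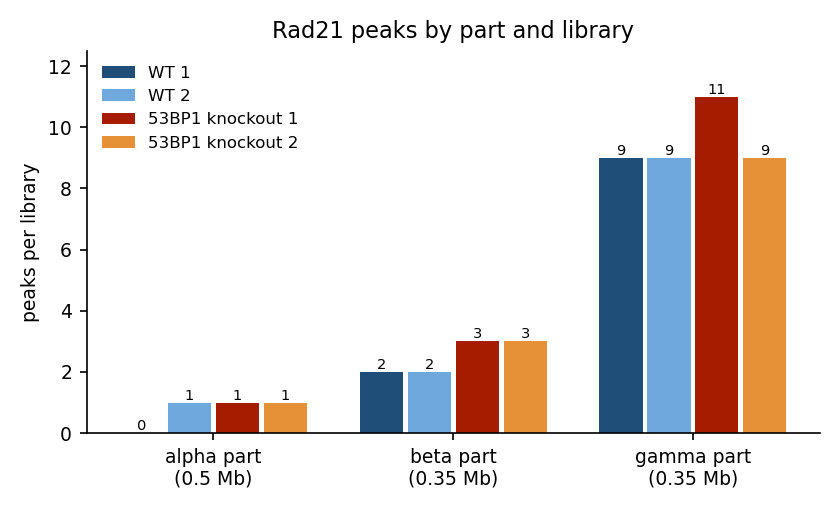
Bars give the number of Rad21 peaks in the alpha, beta and gamma parts of the window for each of the 4 libraries, with part lengths in Mb on the horizontal axis. The gamma part holds 9 to 11 peaks per library, of which 5 or 6 lie above 38 Mb, against 0 or 1 in the longer alpha part.

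Overlapping or touching peaks of the 4 lists were joined, which gave 20 regions, numbered 1 to 20 along the window. The alpha part had 3 of them, each called in 1 library only. Region 1 (36942698 to 36942943) came from knockout replicate 1 with a fold of 3.22. Region 2 (36942950 to 36943410) came from WT replicate 2 with a fold of 3.18, and 6 bp separate the pair. These were weak peaks, at percentiles 6.03 and 4.92 of fold in their own lists. Region 3 (36962564 to 36963309), found in knockout replicate 2 with a fold of 3.87, lay higher, at percentile 62.5. None of the 3 alpha peaks reached a −log10 q of 5. The alpha genes encode the protocadherins once described as cadherin-related neuronal receptors, and over their part of the window no merged region was called in more than 1 library. This depends on joining only touching or overlapping peaks. Had peaks 6 bp apart been joined, regions 1 and 2 would be 1 site, called in knockout replicate 1 and WT replicate 2.

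Just below the window every list had a peak, which ended at 36899968 and 36899980 in WT cells, and at 36899707 and 36899510 in knockout replicates 1 and 2. Its folds were 3.95 and 5.04 in WT cells and 5.88 and 3.35 without 53BP1. It lay outside by 20 to 490 bp, and with it the alpha part would hold 1 and 2 peaks in WT and 2 in each knockout library. The shared Rad21 sites nearest to the empty alpha stretch were thus this one and region 5 in the beta part.

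The longest stretch without a peak measured 744 kb in WT replicate 1, 701 kb in WT replicate 2, 694 kb in knockout replicate 1 and 681 kb in knockout replicate 2. It ended in the beta part in every list, and began in the alpha part in 3 of them and at the peak just below the window in WT replicate 1. Its length was 14.2 to 16.1 times the median peak-free stretch of chromosome 18 in the same list. In all 4 lists together, no peak lay between 36963310 and 37637362, a distance of 674 kb. Of 1094 stretches between merged regions on chromosome 18, this one ranked 16 by length, so longer empty stretches existed elsewhere on the chromosome.

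**Figure D2:**
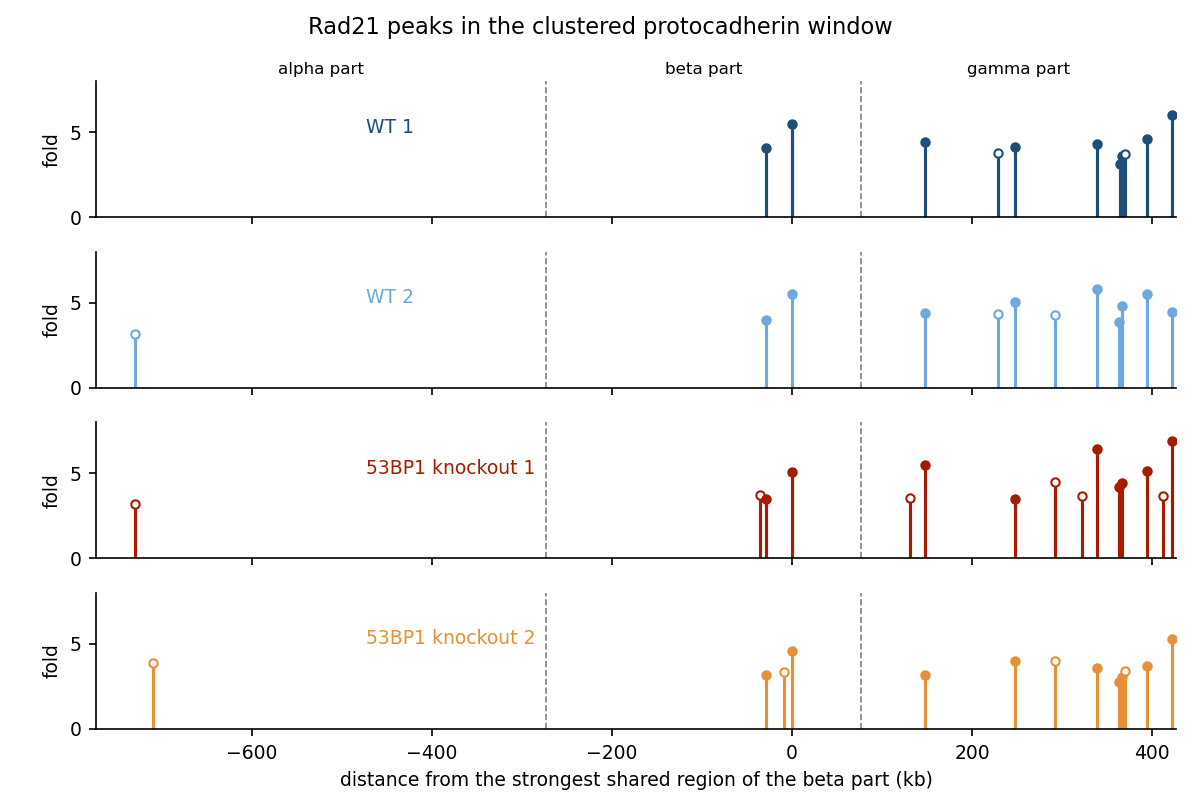
Each vertical line is a Rad21 peak of 1 library, placed by its distance in kb from the centre of region 7, with its height giving the authors' fold enrichment. Filled circles mark regions called in all 4 libraries, open circles the others, and dashed lines the borders of the parts. An empty stretch of 681 to 744 kb precedes the beta peaks in each library, and peaks gather at the right end.

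The beta part had 4 regions, of which 2 were called in all 4 libraries. Region 7 (37673093 to 37673574) was the strongest shared site of the beta part. Its folds were 5.48 and 5.49 in WT cells and 5.05 and 4.56 without 53BP1, percentiles 79.5 to 93.0 of their own lists. Peaks there were narrow, 272 to 407 bp, and their centres differed by at most 89 bp. Region 5 (37644379 to 37644999), 28.7 kb nearer the alpha genes, had folds of 4.08 and 3.99 in WT cells and 3.49 and 3.19 without 53BP1. It was of middling to low rank, at percentiles 15.0 to 49.1. The additional beta peak of each knockout library was not the same site: region 4 (37637363 to 37637585, fold 3.74) was called in replicate 1 only and region 6 (37664155 to 37664583, fold 3.36) in replicate 2 only. After region 7 came a second gap, of 130 kb between merged regions, which spans the border of the beta and gamma parts.

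The gamma part had 13 regions, 7 of them called in all 4 libraries. Between 37.75 and 38 Mb lay the shared regions 9 and 11. Region 9 (37821007 to 37821798) had folds of 4.43 and 4.37 in WT cells and 5.48 and 3.17 without 53BP1, with the WT values between those of the knockout. Region 11 (37920972 to 37921845) had folds of 4.14 and 5.05 in WT cells and 3.51 and 3.98 without 53BP1. Region 12 (37965725 to 37966191) was called in 3 libraries, with folds of 4.26 in WT replicate 2 and 4.47 and 4.01 in knockout libraries, and was not in the list of WT replicate 1. Regions 8 (37803825 to 37804384) and 13 (37995139 to 37995431) were called in knockout replicate 1 alone, with folds of 3.54 and 3.64.

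The last 0.1 Mb of the window held most sites of the gamma part: 6 and 5 peaks in WT cells and 6 and 6 without 53BP1, against 3, 4, 5 and 3 in the 0.25 Mb of the gamma part before it. Of its 7 regions, 5 were shared by all libraries. Region 14 (38011447 to 38012493) had folds of 4.33 and 5.80 in WT cells and 6.42 and 3.60 without 53BP1, and −log10 q of 4.94, 10.2, 10.0 and 3.97. Region 18 (38067478 to 38068428) had folds of 4.62 and 5.54 in WT cells and 5.12 and 3.69 without 53BP1. Region 20 (38095073 to 38096363) had folds of 6.01 and 4.45 in WT cells and 6.90 and 5.25 without 53BP1. It gave the highest fold of the window in WT replicate 1 and both knockout libraries, and in WT replicate 2, where its peak was 1266 bp wide against 430 to 577 bp elsewhere, region 14 was higher. Region 20 was also the widest region of the window. Region 19 (38085620 to 38085823), just before it, was called in knockout replicate 1 alone, with a fold of 3.67. Among the gamma regions called in all 4 libraries, regions 20, 18, 14 and 11 had the highest lowest percentile, with 67.8, 51.4, 45.3 and 18.6. Since Diaph1 directly follows Pcdhgc5 in RefSeq order, how many of these sites lie in the gamma genes and how many beyond them was not determined.

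Regions 15 (38036864 to 38037458) and 16 (38039732 to 38040269) formed the closest pair in each library. Their centres were 2.77 and 2.88 kb apart in WT cells and 3.00 and 2.93 kb without 53BP1. Of the neighbouring peaks on the rest of chromosome 18, 1.92% ± 0.207 were as close or closer (mean ± SD, n = 4 libraries). Both sites were weak in WT replicate 1 and knockout replicate 2, with folds of 3.13 and 2.78 in region 15 and 3.61 and 3.02 in region 16. They were stronger in WT replicate 2 (3.86 and 4.81) and knockout replicate 1 (4.17 and 4.45), so the split did not follow genotype. A further neighbour, region 17 (38043228 to 38043626), was listed in WT replicate 1 and knockout replicate 2 only, the libraries in which region 16 was weak, with folds of 3.70 and 3.42. Whether the caller divided one broader signal differently between lists was not tested.

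**Figure D3:**
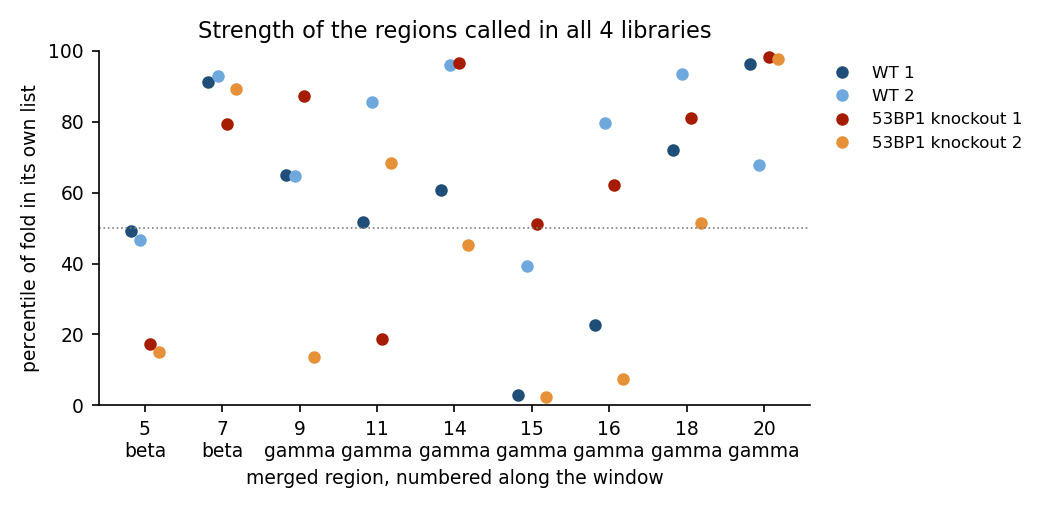
Points give the percentile of each peak's fold within its own list, for the 9 regions called in all 4 libraries, and the dotted line marks the middle of a list. Region 7 lies above percentile 79 in every library, whereas regions 9, 11, 14, 15 and 16 differ widely between libraries of 1 genotype.

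Median spacing of neighbouring peaks in the window, centre to centre, was 26.3 and 28.7 kb in WT cells and 26.5 and 26.3 kb without 53BP1. On the rest of chromosome 18 it was 47.4 and 49.3 kb in WT cells and 44.7 and 48.7 kb without 53BP1. Spacing was shorter in the window in 4 of 4 libraries, with a difference of −20.6 ± 1.74 kb (mean ± SD of the paired differences). The two-sided exact paired permutation test over libraries gave p = 0.13, the smallest that 4 pairs allow. The libraries measure the same window, so each test of the window against the rest gauges repeatability between libraries. It does not measure how stretches of the chromosome vary. Peak density over the whole window, 10.6 ± 1.42 per Mb, was higher than on the rest of the chromosome in 4 of 4 libraries, by 2.37 ± 1.04 per Mb (exact paired permutation p = 0.13). Both differences rest on the last 0.1 Mb. With the window ended at 38 Mb, the difference in density was −1.95 per Mb, with the window lower in 4 of 4 libraries, since 5, 7, 9 and 7 peaks remained, and the spacing was 9.49 kb longer.

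Peaks in the window were narrower, with median widths of 430 and 420 bp in WT cells and 374 and 473 bp without 53BP1, against 499, 506, 480 and 542 bp on the rest of chromosome 18. The difference of −82.5 ± 17.6 bp had the same sign in 4 of 4 libraries (exact paired permutation p = 0.13). It turned to 36.4 bp when only folds of 4 or more were kept. In strength the window was higher than the rest in 3 libraries and lower in 1. The median percentile of fold was 51.8 and 66.2 in WT cells and 51.1 and 45.3 without 53BP1, against 51.5, 52.1, 50.8 and 51.9 on the rest (exact paired permutation p = 0.625).

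Adjoining stretches of chromosome 18 were far denser. The 1.2 Mb below the window held 27 and 30 peaks in WT cells and 27 and 28 without 53BP1. The 1.2 Mb above it held 28 and 27 in WT cells and 30 and 24 without 53BP1. Each of the 4 libraries thus had fewer peaks in the protocadherin window than in either neighbour. Among 72 windows of 1.2 Mb laid along the chromosome from the protocadherin window, the lower neighbour ranked 1 and the upper neighbour 2 by mean peak number. The protocadherin window ranked 23, with a mean of 12.75 peaks against a median of 9.63 over all 72.

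**Figure D4:**
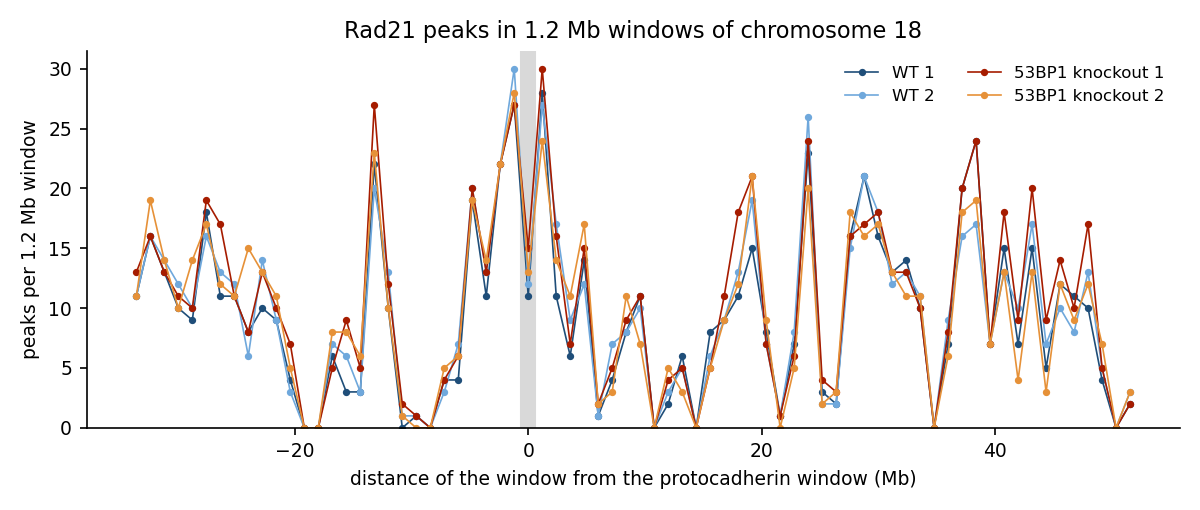
Lines give the number of Rad21 peaks in successive 1.2 Mb windows of chromosome 18 for each library, against the distance in Mb from the protocadherin window, which is shaded. The shaded window holds 11 to 15 peaks and stands between neighbours of 24 to 30.

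Sharing between libraries was then compared. In the window 9 of 20 regions (45%) were called in all 4 libraries, against 41.7% of regions on all chromosomes and 446 of 1075 (41.5%) on the rest of chromosome 18. Single-library regions numbered 8 of 20, against 334 of 1075 on the rest. By library, 9 of 11 and 9 of 12 WT peaks and 9 of 15 and 9 of 13 knockout peaks lay in regions of all libraries, 71.5% ± 9.24 on average (SD, n = 4), and 62.8% ± 2.95 on the rest of the chromosome. The same 9 regions enter the share of every library, so these shares differ only through the number of peaks called in the window. They are not independent values, and their SD and test do not measure how sharing varies. The share was higher in 4 of 4 libraries (exact paired permutation p = 0.13), but with only folds of 4 or more the difference was −3.46 percentage points. With the window ended at 38 Mb the difference was −3.26. Without knockout replicate 2 it was 1.98 and without WT replicate 2 it was 3.69. At the 9 shared regions peak centres spread over a median of 149 bp between libraries, with a range of 72 to 418.5 bp. The median was 202 bp at 441 shared regions on the rest of the chromosome. Shared regions are made of overlapping peaks, so their width limits this spread. Median region width was 792 bp in the window and 914 bp on the rest.

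**Figure D5:**
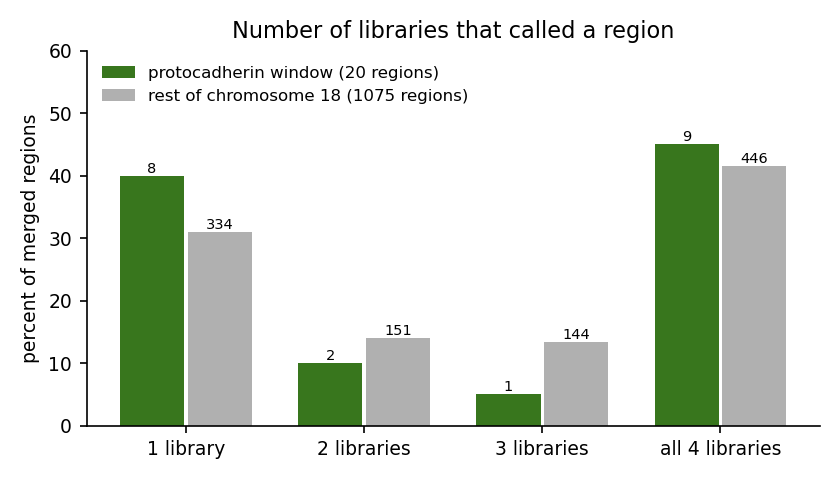
Bars give the percentage of merged regions called in 1, 2, 3 or all 4 libraries, in the protocadherin window (20 regions) and on the rest of chromosome 18 (1075 regions), with region counts above them. Regions of all libraries make up 45% in the window and 41.5% on the rest.

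Last, the genotypes were compared, to see whether loss of 53BP1 went with altered cohesin occupancy at these genes. The knockout libraries, with 15 and 13 peaks, both lay above the WT libraries, with 11 and 12. The means were 14 ± 1.41 and 11.5 ± 0.707 (SD, n = 2 each), which differ by 2.5 peaks, and by 1.5 without knockout replicate 1. The exact permutation test gave p = 0.33, the smallest p for 2 against 2. Such a separation with higher knockout counts was found in 16.9% of 1.2 Mb windows on all chromosomes, and the reverse in 4.96%. As a share of the chromosome 18 peaks the counts were 1.59% and 1.66% in WT cells and 1.93% and 1.81% without 53BP1. Peak names carry 1 prefix for both libraries of replicate number 1 and another for those of number 2, and within these the knockout exceeded WT by 4 peaks and by 1 peak. With the same number of peaks from each list the window counts stayed separated, at 11 and 11 in WT cells and 13 and 13 without 53BP1 (exact permutation p = 0.33). The share of windows separated at that setting was not computed. The difference turned to −1 peak at a −log10 q of at least 5 and to −2.5 peaks at a fold of at least 4. Knockout replicate 2, the weakest list, then held 1 and 3 peaks, against 5 and 8 in knockout replicate 1. The WT libraries held 3 and 5 at that −log10 q and 7 and 9 at that fold. On the rest of chromosome 18 knockout replicate 2 was also lowest at that fold, with 2.60 peaks per Mb against 4.45 to 5.11. Whether the sign change goes with genotype or with list strength was not tested. In the beta part the counts of 3 and 3 against 2 and 2 were also separated (exact permutation p = 0.33), as in 8.67% of 0.35 Mb windows. With the same number of peaks from each list the beta counts were no longer separated, at 2 and 2 against 2 and 3 (exact permutation p = 1), and the difference was −1 at that −log10 q and −0.5 at that fold. Covered length was 5.54 and 6.07 kb in WT cells and 5.78 and 7.16 kb without 53BP1, and these values overlapped (exact permutation p = 0.667).

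Regions called in both knockout libraries and neither WT library numbered 0 of 20, against 3.05% on all chromosomes. With only 20 regions, a count of 0 is near that share, so it sets the window apart in no way. If a library's peaks had to cover at least 0.5 of a region, there were 2 such regions, 12 and 16. In region 12 WT replicate 1 had no peak and that of WT replicate 2 was narrower than the knockout peaks. In region 16 both WT peaks were narrower. Knockout replicate 1 had 5 regions of its own and knockout replicate 2 had 2, whereas WT replicate 2 had 1 and WT replicate 1 had 0. On the rest of chromosome 18 knockout replicate 1 likewise had the most regions of its own, 119, against 97 in knockout replicate 2, 69 in WT replicate 2 and 49 in WT replicate 1. A single region, number 10 in the gamma part (37901594 to 37901826), was called in both WT libraries and neither knockout library, 1 of 20 against 2.19% on all chromosomes. Its folds were 3.75 and 4.32, percentiles 31.0 and 62.5 of their own lists, and its −log10 q 1.90 and 2.89. At the 9 shared regions, both WT folds exceeded both knockout folds in 3 (regions 5, 7 and 11) and the reverse held in 0. Over all chromosomes the first pattern was found at 18.3% and the reverse at 8.74% of 14224 such regions, and folds of different lists are not on 1 scale. By percentile within each list, regions 5 and 7 stayed separated. Region 11 did not, at 51.8 and 85.5 in WT cells against 18.6 and 68.4. Region 20 was separated the other way, at 96.2 and 67.8 in WT cells against 98.3 and 97.7. The shares by percentile over all chromosomes were not computed.

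Between pairs of libraries, regions called by both made up 76.9% of those called by either for the WT pair (10 of 13) and 55.6% for the knockout pair (10 of 18). The 4 pairs of different genotype ranged from 52.9% to 71.4%. The WT pair thus lay above every mixed pair, whereas the knockout pair lay within their range and below their mean of 62.5% ± 8.20 (SD, n = 4 pairs). The mixed pairs reuse the same libraries and are not independent units. On the rest of chromosome 18 the WT pair, with 66.9%, likewise lay above every mixed pair (59.5% to 62.4%). The knockout pair, with 57.9%, lay below every mixed pair there, and not only below their mean.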

How the data were processed

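Per the submitters' processing notes, Bowtie2 2.4.4, SAMtools 1.15.1, deepTools 3.5.1 and MACS2 2.2.7.1 were used with the mouse build mm9. Not given in the sources used here are their parameters, the treatment of reads that map to several places and any input control. The authors deposited 1 list of broad peaks per library, without pooling, with 9 columns. The deposited fold is a ratio of signal to background, the deposited −log10 p and −log10 q are per peak (lowest −log10 q 1.01 to 1.02), and the deposited score is that −log10 q times 10, cut to a whole number. Depth is unknown, so no counting error can be given, and only the number of libraries sets the precision.

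The 19 numbered chromosomes and X were analysed, with 1-based coordinates. Touching or overlapping peaks were merged, and a library held a region if 1 of its peaks lay in it. Tests were two-sided exact permutation tests: WT was set against knockout over 6 arrangements, and the window with the rest of chromosome 18, from the first to the last peak, by 16 patterns of sign flips over 4 libraries. Fold percentiles were taken within each list. Named regions were, per part, up to 4 shared regions with the highest lowest percentile, the widest region, the longest gap and regions that followed genotype; the other regions of the window were named so that each member is accounted for. The window, parts and lists were chosen with earlier results of these data known. Nothing in the labels says that replicates were separate cultures, so spread between them may be technical. The comparison with non-clustered protocadherins was not made. The functions were tested on simulated peaks. Python 3.11.15, pandas 2.3.3, numpy 2.4.6 and matplotlib 3.10.9 were used.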

Additional observations from a re-analysis of the deposited data

How the results depend on the processing

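Of 95 values recomputed with all 4 libraries, 74 kept their direction or, for counts of regions, stayed within 1.5 times, 14 changed sign, 3 differences became 0 and 4 counts moved further. With only peaks of −log10 q 5 or more, the knockout minus WT difference was −1 peak, −0.64 kb covered, −1 beta, 0 alpha and 0 gamma peaks, 0 regions were in all libraries and the share of peaks in such regions was 48.1 percentage points below the rest (−48.1). At this threshold 1 to 5 peaks per library remained, the fewest in knockout replicate 2, and spacing could not be computed. At a fold of at least 4 the knockout minus WT difference was −2.5 peaks, −2.29 kb covered, −0.5 beta, 0 alpha and −2 gamma peaks. At that fold 2 regions were in all libraries. Window minus rest was then −3.46 percentage points for the share and 36.4 bp for width. WT-only regions stayed at 1 under both thresholds, but the site differed, since region 10 passed neither in both WT lists. When peaks had to cover at least 0.5 of a region, knockout-only regions rose from 0 to 2 (regions 12 and 16). Region 12 was covered to 42.0% in WT replicate 2 and to 0% in WT replicate 1, and region 16 to 49.3% in both. Ending the window at 38 Mb, chosen after the data were seen, gave −1.95 peaks per Mb, 9.49 kb of spacing, −3.26 percentage points of sharing, −1.04 of fold percentile and 4 regions in all libraries. Widening it by 5 kb, also chosen afterwards, gave 10 such regions.

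Leaving out 1 library gave knockout minus WT of 1.5 to 3.5 peaks, −0.0305 to 1.351 kb (the lowest without knockout replicate 2), 0 to 1 alpha, 1 beta and 0 to 2 gamma peaks. Window minus rest was then 1.93 to 2.72 peaks per Mb, −21.4 to −20.0 kb of spacing, 1.98 to 9.65 percentage points of sharing, −87 to −74.7 bp of width and −1.94 to 4.96 of fold percentile (the lowest without WT replicate 2). Regions numbered 9 to 10 in all remaining libraries, 0 to 5 knockout-only (5 without knockout replicate 2, when 1 knockout library defines them) and 1 to 2 WT-only. With the replicate block, differences within replicate numbers average to the same 2.5 peaks by construction. The numbers were not taken to pair libraries in the main tests. Replicate differences correlated at 0.0561 between genotypes over 2135 windows. Such a value cannot show whether libraries of 1 number were prepared together, and their peak names share a prefix.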

Other observations

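The empty stretch in the alpha and beta parts differed from the longer empty stretches of chromosome 18 in its surroundings, a comparison chosen after the data were seen. Within 0.5 Mb on either side of the 674 kb stretch lay 17 and 18 peaks in WT cells and 22 and 21 without 53BP1, a mean of 19.5. Around the 15 longer stretches the mean per library was 1 to 11.5 peaks, with a median of 5.5. Some of these adjoin each other, so their surroundings fall partly within another empty stretch, and low counts there are partly built in. The stretch from 27157237 to 28235539, with empty stretches on both sides, had 0.25 peaks below it and 0.75 above. Of these 16 stretches, the protocadherin one thus had the most peaks around it, with 7.5 on the side below the alpha genes and 12 on the side of the gamma genes. It was the shortest of the 16, and stretches shorter than it were not compared.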
